A study of Arabidopsis thaliana with 8 samples.

Results

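In plants grown on selenate, 68 probe sets on an Affymetrix array of Arabidopsis thaliana moved one way in roots and the other way in shoots. Of these, 38 were higher in selenate roots and lower in selenate shoots than in their controls, and 30 were lower in roots and higher in shoots. Together they make up 0.424% of the probe sets past a filter on low signals. They were drawn from 22810 probe sets, 64 of them array controls, of which 16053 that are no controls reached a signal of 100 on at least 2 of the 8 arrays. A member had to differ from its control by at least 0.7 on the log2(signal + 25) scale in each organ, with opposite signs and with both selenate arrays beyond both control arrays. The members were thus chosen by their selenate changes in both organs, and these changes are given below as a description with no test. LEA4-5 and AT1G04770 also met the criteria and were left out by the rule.

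The plants were ecotype WS, 10 days old, and had been grown vertically on MS medium at 0.5 strength, under 16 h of light. Control roots and control shoots came from medium without selenate, selenate roots and selenate shoots from medium with 40 µM selenate, and each of these groups has 2 arrays. Whether the 2 arrays of a group stand for separate cultures is not stated in the labels, so the p-values reflect the spread among these arrays alone, which may be technical. Fewer cells of a type and less RNA per cell cannot be told apart in whole organs.

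Selenate is chemically similar to sulfate, enters roots through sulfate transporters and follows sulfate into the assimilation pathway, where selenium can take the place of sulfur in amino acids. Roots meet the oxyanion first, and shoots receive what the xylem carries upwards. Many genes for calcium signalling, protein turnover and defence are known to respond quickly to stress, and their basal levels differ between roots and green tissue.

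The descriptions of the shoot samples name roots, while their titles and source names give shoots, and the organ markers matched the titles. All 7 shoot markers named on the array (9 were listed), among them SBPASE of the Calvin cycle and LHCB4.1 of the light-harvesting antenna, were higher in shoots, with a summed signal of 149100 to 160690 on the shoot arrays and 2093 to 3583 on the root arrays. The 3 named root markers (6 were listed), EXPA7 and EXPA18 of root hairs and the beta-glucosidase PYK10, were lower in shoots, and none was at 0 on any array. The SD of the difference between replicate arrays over all probe sets past the filter was 0.264 (log2) in roots without and 0.277 in roots with selenate, and 0.511 and 0.409 in the shoots, so a change of 0.7 is closer to the replicate spread in shoots than in roots. The 3' to 5' signal ratio of the GAPDH controls was 0.783 to 0.868 in roots and 2.03, 10.4, 7.34 and 2.95 in shoot controls 1 and 2 and shoot selenate 1 and 2. The ubiquitin ratio was 4.38 and 4.88 in control shoots and 5.24 and 6.11 in selenate shoots, and its part in the shoot changes was not tested.

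The opposed transcripts were few beside those that moved in one organ. Taken alone, the size and array criteria were met by 4.71% of the 16053 probe sets for higher and 4.30% for lower signals in selenate roots, and by 3.23% and 3.17% in selenate shoots. Both criteria with opposite signs held for 0.237% (higher in roots) and 0.187% (lower in roots), and with the same sign for 161 probe sets or 1.00%, 91 of them higher (0.567%) and 70 lower (0.436%) in both organs. Because the rule fixed the members by these contrasts, nothing further was read from their number. The changes were uneven: in the group higher in roots the median change was 1.66 (log2) in roots and -0.86 in shoots, and the root change was the larger one for 33 of 38. In the group lower in roots the medians were -0.94 and 0.97, and the root change was larger for 14 of 30. Changes of at least 1 on the log2 scale in both organs were seen for 19 members, 12 higher and 7 lower in roots.

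**Figure D1:**
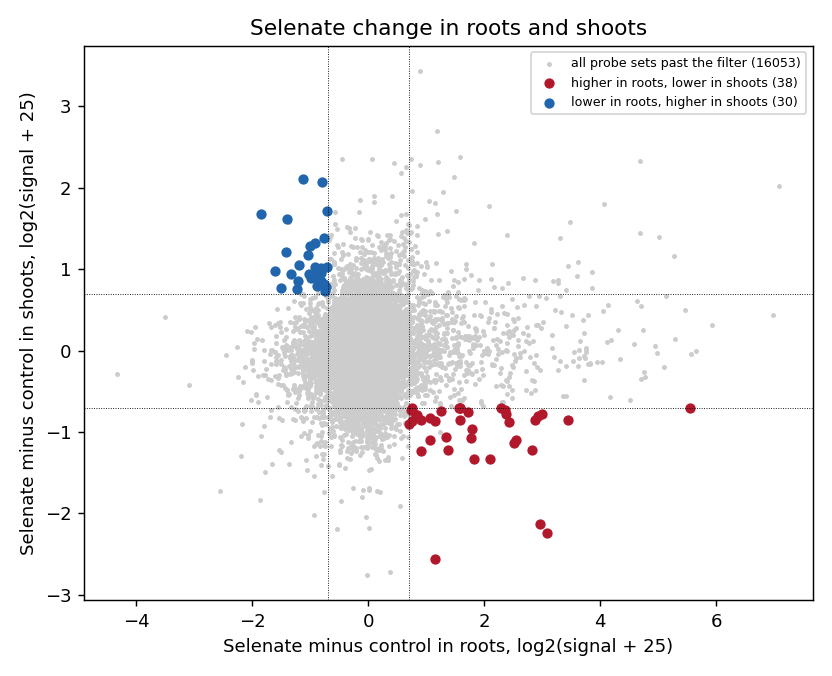
Selenate minus control on the log2(signal + 25) scale in roots (horizontal) and shoots (vertical) for the 16053 probe sets past the filter, with the 38 members higher in roots in red and the 30 lower in roots in blue; dotted lines mark 0.7 in each direction. The red points reach 5.55 in roots and -2.56 in shoots, the blue points -1.84 in roots and 2.11 in shoots.

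Of the 68 probe sets, 25 match 1 gene in the annotation used here, 1 matches several and 42 have no listed gene. All 25 named genes are nuclear, on chromosomes 1 (6 genes), 2 (4), 3 (2), 4 (3) and 5 (10), and none lies within 5 genes of another. There is 1 member in each direction on a probe set ending in _s_at, which can bind transcripts of several genes.

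Among the named genes higher in selenate roots, 4 encode a calcium sensor, RING finger proteins or a kinase. CML23, a calmodulin-like calcium sensor, had signals of 127 and 135 in control roots and 868 and 712 in roots on selenate, and 68.8 and 84.8 in control shoots and 31.4 and 36.6 in shoots on selenate. Its level was 5.19-fold higher in selenate roots and 1.72-fold lower in selenate shoots, where all 4 arrays lay below 100. AT1G20823, which encodes a RING-H2 finger protein of the ATL family of ubiquitin ligases, went from 389 and 462 to 2297 and 2474 in roots and from 216 and 144 to 56.7 and 122 in shoots. This is a 5.37-fold higher and a 1.84-fold lower level, and the lower control shoot array lay only a little above the higher selenate one. AT2G42360, another RING-H2 gene of that family, had 50.4 and 34.4 in control roots and 141 and 157 in roots on selenate, and 37.3 and 41.2 in control shoots and 2.3 and 2.6 in shoots on selenate. The shoot values of AT2G42360 lie near the bottom of the signal range, and the 2.34-fold lower level there rests on values below the pseudocount. AT4G10390, a protein kinase gene, had 285 and 266 in control roots and 461 and 569 in roots on selenate, and 76.3 and 77.2 in control shoots and 20.6 and 50.7 in shoots on selenate, a 1.79-fold higher and a 1.73-fold lower level.

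A glutaredoxin and a protein-folding gene of this direction were stronger in control shoots than in control roots. AT1G06830, a CC-type glutaredoxin gene, of a plant-specific class of small redox proteins, had 26.3 and 55.3 in control roots and 198 and 194 in roots on selenate, and 599 and 388 in control shoots and 265 and 206 in shoots on selenate. It was 3.44-fold higher in selenate roots and 1.96-fold lower in selenate shoots, so that the gap between the organs narrowed. AT5G48570 (FKBP65, also ROF2), a peptidyl-prolyl isomerase gene known from the heat response, had 170 and 150, then 436 and 398 in roots, and 774 and 787, then 473 and 437 in shoots. The arrays of each pair lay close together, and on selenate the levels in roots and shoots did too.

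Defence and storage genes were also found here. AT4G16260, a beta-1,3-glucanase gene of glycosyl hydrolase family 17, had the highest signals of any member, 4397 and 4540 in control roots and 8338.5 and 8536 in selenate roots, against 204 and 74.1 in control shoots and 73.1 and 45.4 in selenate shoots. Its root level was 1.88-fold higher, and in shoots a 1.81-fold lower level rested on control arrays that differed from each other more than the second one differed from selenate. LCR67 (PDF1.1), a plant defensin gene, had 2.9 and 22.3 in control roots and 178 and 132 in selenate roots. Its shoot signals were 21.6 and 44.8 in controls and 20 and 2.3 with selenate, all low and barely apart. PAP85, a vicilin-like seed storage protein gene, had 30.6 and 34.7 in control roots and 159 and 202 in roots on selenate, and 39.6 and 73.3 in control shoots and 12.9 and 1.6 in shoots on selenate. The level of PAP85 was 3.55-fold higher in roots and 2.51-fold lower in shoots, where its change was -1.33 (log2) with the pseudocount of 25, -2.44 with 5 and -0.54 with 100.

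The other 6 named genes of this direction are less well characterised. AT5G11070 had 188 and 179 in control roots and 1882 and 1413 in roots on selenate, and 1217 and 1294 in control shoots and 759 and 682 in shoots on selenate. Its order between the organs turned: shoots were above roots in controls and below them on selenate, with no overlap of arrays in either case. AT5G65300 had 225 and 168, then 1249 and 1209 in roots, and 35.9 and 66.3, then 6.4 and 11.6 in shoots, a 5.71-fold higher root level on a transcript that was weak in shoots. AT5G28630, which encodes a glycine-rich protein, had 440 and 361, then 1355 and 1111 in roots, and 164 and 143, then 52.2 and 130 in shoots, 2.96-fold higher and 1.63-fold lower. AT5G08350, a GRAM-domain protein gene, had 366 and 369, then 625 and 644 in roots, and 321 and 265, then 148 and 191 in shoots. AT2G44500, an O-fucosyltransferase family gene, had 1150 and 1144, then 1823 and 2046 in roots, and 448.5 and 374, then 194 and 290 in shoots. Both lay just past the size threshold, at 1.68-fold and 1.67-fold in roots and 1.64-fold and 1.65-fold in shoots. AT5G64190 had 5.0 and 24, then 25 and 59.0 in roots, and 208 and 139, then 78.7 and 86.7 in shoots, and its root arrays were separated by little over 1 signal unit.

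**Figure D2:**
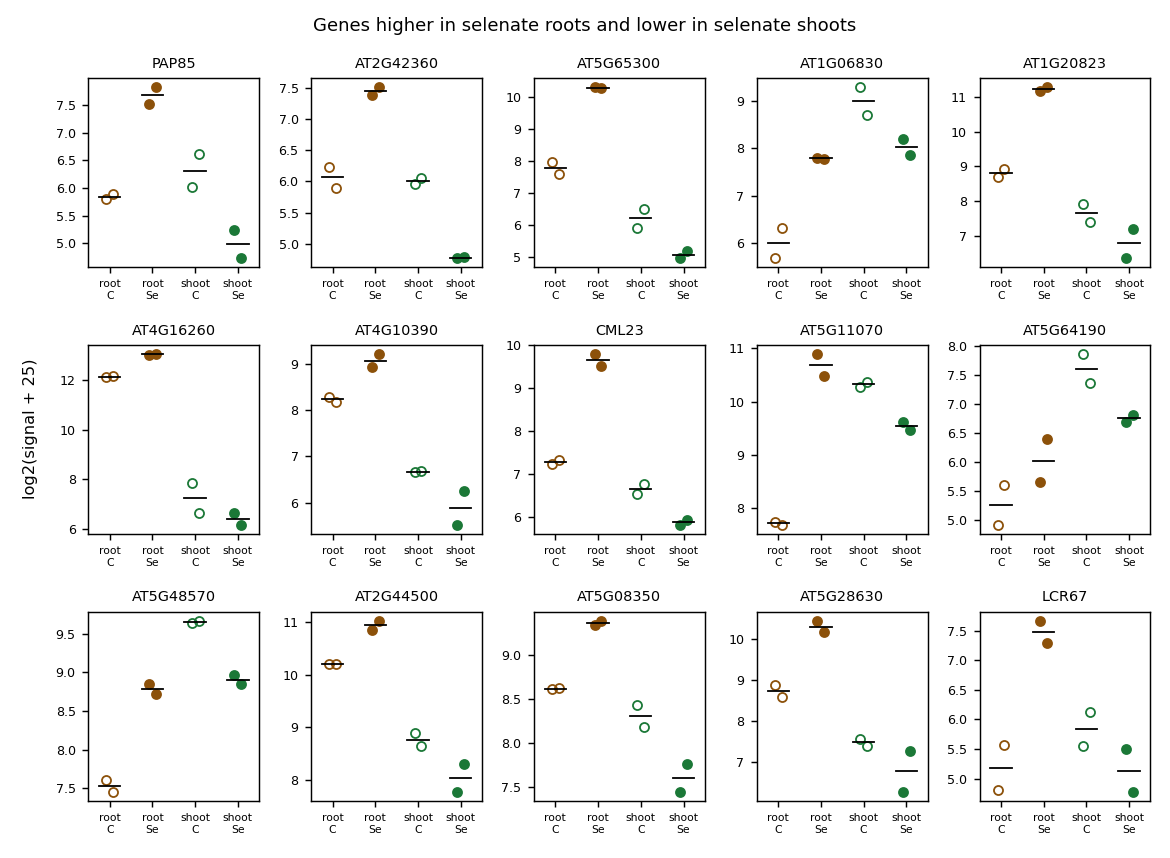
Log2(signal + 25) of the 15 named genes that were higher in selenate roots and lower in selenate shoots, 1 panel per gene; brown points are root arrays, green points shoot arrays, open points controls (C), filled points 40 µM selenate (Se), and bars the means of 2 arrays. In each panel the filled brown points lie above the open brown ones and the filled green points below the open green ones, as the rule requires, and the vertical scale differs between panels.

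The genes lower in selenate roots and higher in selenate shoots included transport, cell wall and receptor genes. AT3G21670 (NPF6.4), of the nitrate and peptide transporter family, had 143 and 140 in control roots and 77.2 and 63.5 in roots on selenate, and 2163 and 3077 in control shoots and 5603.5 and 4522 in shoots on selenate. It was 1.75-fold lower in roots and 1.94-fold higher in shoots, where it had the highest shoot signals of this group. SBT3.5, a subtilisin-like protease gene known to act on a pectin methylesterase in roots, had 293 and 248, then 140 and 146 in roots, and 157 and 170, then 332 and 301 in shoots. The selenate levels of SBT3.5 were thus close to the control levels of the other organ. AT5G59680, a leucine-rich repeat receptor kinase gene, had 399 and 363, then 212 and 214.5 in roots, and 17.2 and 37.6, then 64.3 and 67.1 in shoots. AT2G25150, an acyltransferase gene that forms coumaroyl spermidine conjugates in roots, had 319 and 285, then 152 and 163 in roots, and 15.1 and 2.8, then 26.7 and 42.7 in shoots. These last 2 genes had strong root signals, while every shoot array lay below 100.

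AT5G43150 was the only named gene of this direction with a change of at least 1 (log2) in both organs. Its signals were 2472 and 2415 in control roots and 1155.5 and 1200 in roots on selenate, and 1021.5 and 960 in control shoots and 2216 and 2303 in shoots on selenate, 2.05-fold lower in roots and 2.25-fold higher in shoots. The selenate shoots came near the level of control roots and the selenate roots near that of control shoots, and the arrays of each pair lay close together. SIS, named for salt-induced serine-rich protein and a salt-responsive gene, had 784.5 and 655, then 391 and 344 in roots, and 708 and 496, then 1131 and 1184 in shoots. AT1G21680, whose protein resembles the N-terminal domain of dipeptidyl peptidases, had 1068.5 and 1144, then 684 and 621 in roots, and 1429 and 1392, then 2391 and 2329 in shoots. Both passed 100 on every array. The level of SIS was 1.89-fold lower in roots and 1.91-fold higher in shoots, and that of AT1G21680 was 1.67-fold lower and 1.66-fold higher. AT2G25625 had 77.8 and 79.4, then 9.5 and 14.2 in roots, and 336 and 162, then 444 and 392 in shoots. AT5G45310 had 65.6 and 67.5, then 41.7 and 11.9 in roots, and 146 and 176, then 332 and 266 in shoots. In these 2 genes no root array reached 100. AT4G02360, of a plant family of unknown function, had 240 and 201, then 150 and 102 in roots, and 1.7 and 6.9, then 27.2 and 43.1 in shoots, and its 2.04-fold higher shoot level rests on signals near the pseudocount.

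**Figure D3:**
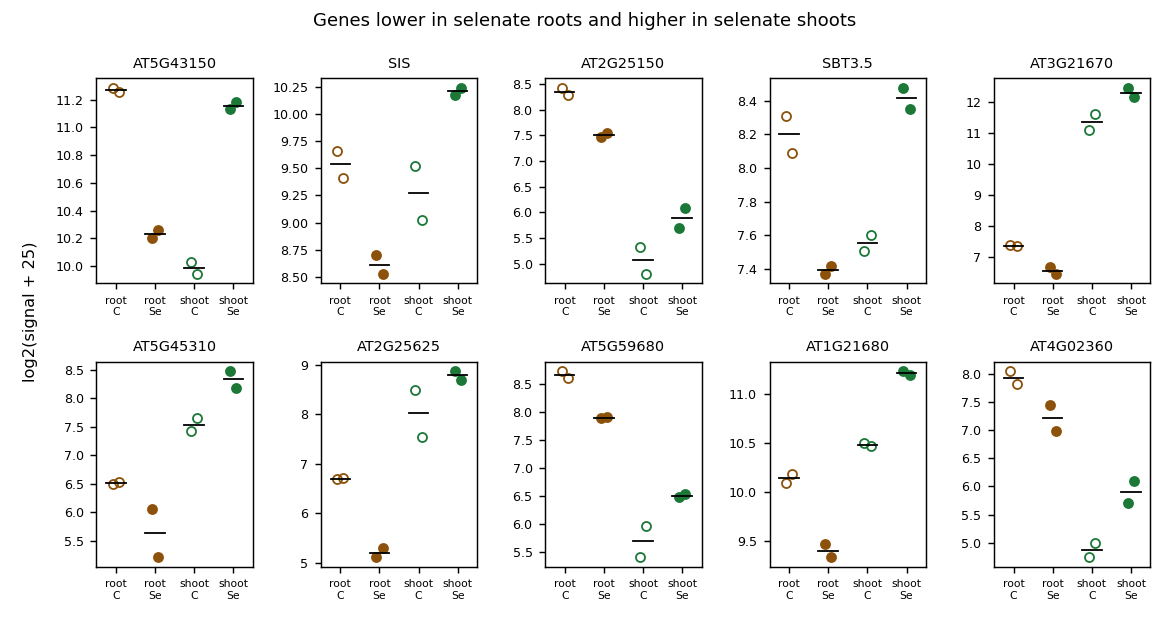
Log2(signal + 25) of the 10 named genes that were lower in selenate roots and higher in selenate shoots, 1 panel per gene; brown points are root arrays, green points shoot arrays, open points controls (C), filled points 40 µM selenate (Se), and bars the means of 2 arrays. The filled points of AT5G43150 and SBT3.5 stand near the open points of the other organ, and the vertical scale differs between panels.

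Some of the largest opposed changes belonged to probe sets with no gene listed. The probe set 253767_at had 95.9 and 78.9 in control roots and 886 and 974 in roots on selenate, and 243 and 389 in control shoots and 61.8 and 31.8 in shoots on selenate, 8.51-fold higher and 4.75-fold lower. For 249082_at the signals were 24.5 and 26.5, then 353 and 387 in roots, and 107 and 96.4, then 1.6 and 6.6 in shoots. In both, the root arrays on selenate stood far above their controls, and 249082_at was 7.82-fold higher in roots and 4.36-fold lower in shoots. In the other direction 262128_at had 375 and 329, then 92.9 and 68.6 in roots, and 73.3 and 71.0, then 305 and 266 in shoots, 3.58-fold lower and 3.19-fold higher. The probe set 254805_at had 122 and 121, then 37.3 and 24.1 in roots, and 124 and 65.2, then 216 and 500 in shoots. Its selenate shoot arrays differed from each other by more than the lower one differed from the controls.

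Members near the size threshold were as follows. Just inside were LCR67 and 262756_at, with shoot changes of -0.70 each, and 259058_at, with a root change of -0.70. Just outside were EXPA7, an expansin gene of root hairs (-1.16 in roots and 0.70 in shoots), 261647_at (-0.70 and 0.82) and 252273_at (0.69 and -1.17). The 0.70 of EXPA7 and the -0.70 of 261647_at missed the threshold in the third decimal.

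For 20 of the 27 members whose organ order turned, that is, for which 1 organ had the higher mean in controls and the other on selenate, the arrays of both organs were apart in both conditions. In the group higher in roots, shoots were above roots for 19 of 38 members in controls and for 4 of 38 on selenate. In the group lower in roots, the numbers were 7 of 30 and 19 of 30. These counts follow in part from the rule, which asks for changes that move the organs against each other. Their shares over all probe sets were not counted, and nothing was read from them.

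Signals were low in at least 1 organ for many members. No shoot array reached 100 for 21 of the 68, and no root array for 4. Over all 16053 probe sets past the filter these numbers were 1914 and 1028. When a signal of 100 was asked for on at least 2 arrays of each organ, a setting chosen after the values were seen, 37 of the 68 remained, 19 higher and 18 lower in roots. Of all 16053 probe sets, 12360 remained. With a pseudocount of 100 in place of 25, 17 members were left, AT5G11070 and AT1G06830 among the named genes higher in roots and AT5G43150 and SIS among those lower in roots. Leaving out 1 array moved the change of 10 named genes by over 1.5 times. Without shoot selenate 1 the shoot change was -0.20 for AT5G28630, -0.43 for AT4G10390, -0.45 for AT1G20823, -0.46 for AT2G44500 and -1.06 for LCR67. Without shoot selenate 2 it was -1.21 for AT5G28630 and -0.34 for LCR67. Without shoot control 1 it was -0.25 for AT4G16260, 0.53 for AT5G59680 and 1.25 for AT2G25625, and without shoot control 2 it was -1.46 for AT4G16260, 0.29 for AT2G25625 and -0.41 for LCR67. In roots the change of AT5G64190 was 0.42 with root control 1 left out and 0.39 with root selenate 2 left out, and in the latter case that of AT5G45310 was -0.46. Each kept its direction.

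**Figure D4:**
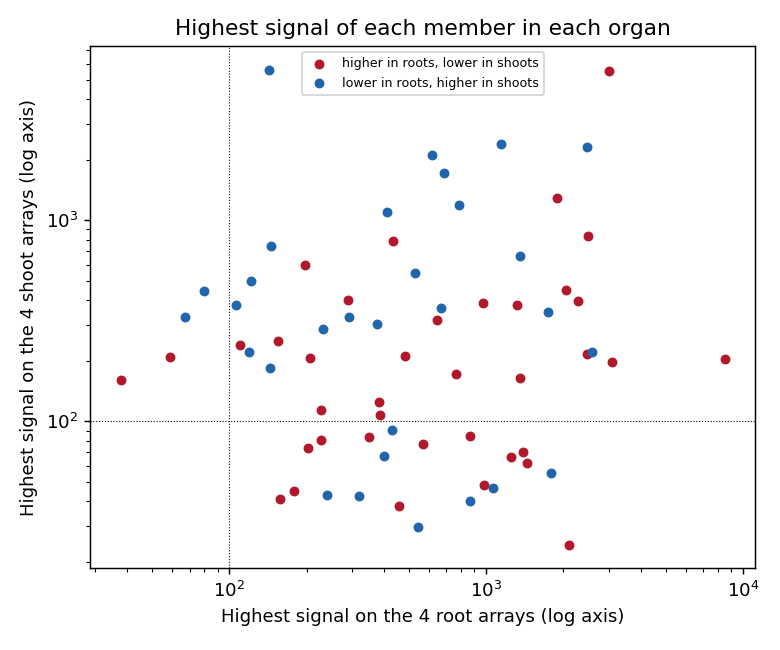
The highest signal on the 4 root arrays (horizontal) and on the 4 shoot arrays (vertical) for each of the 68 members, both on log axes, with dotted lines at a signal of 100; red points are higher in selenate roots and blue points lower. The 21 points below the horizontal line had no shoot array at 100, and the 4 points left of the vertical line no root array.

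Because the rule moves the organs against each other, the gap between shoots and roots is given for each treatment as a description. In the group higher in selenate roots the median gap, shoots minus roots, was 0.03 (log2) in controls and -2.68 on selenate. In the group lower in selenate roots it was -1.23 in controls and 0.97 on selenate, and over all 16053 probe sets -0.21 and -0.25. At the median, the selected members were about as strong in control shoots as in control roots in the first group, and stronger in control roots in the second. The rule had used these control arrays, and the filter let many members through 1 organ, so no trait of the groups was read from these gaps.

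**Figure D5:**
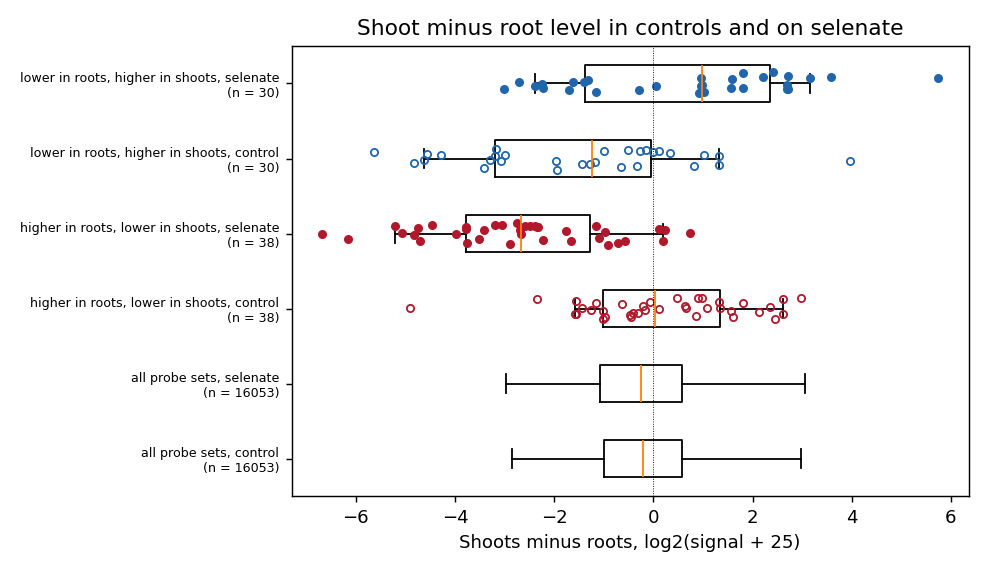
Shoots minus roots on the log2(signal + 25) scale in controls and on selenate, for all 16053 probe sets and for both groups of members; boxes span the quartiles, orange lines are medians, whiskers run from the 5th to the 95th percentile, and points are members (open in controls, filled on selenate). The median of the red members is 0.03 in controls and -2.68 on selenate, that of the blue members -1.23 and 0.97, and the rule fixes the direction of both shifts.

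The level in shoots against roots, averaged over control and selenate, was tested with limma over all 16053 probe sets. This mean takes in the opposed changes that chose the members, so the counts describe these averages and no comparison between the groups of members is drawn from them. At an adjusted p under 0.05, 40 of the 68 members were lower in shoots, 20 were higher and 8 were not called, while 74.6% of all probe sets were called, 45.0% lower and 29.6% higher. Many members passed the filter through 1 organ: with signal asked for in each organ, 16 of 37 were lower and 13 higher in shoots. No share called among the 12360 probe sets with such signal is given beside these counts, and nothing was read from them.

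For 13 of the 25 named genes the limma call was the same over both treatments and in each treatment alone, 10 lower and 3 higher in shoots. The share of all probe sets with such a repeated call was not counted, and nothing was read from these numbers. AT4G16260 was 55.1-fold lower in shoots (log2 difference -5.78 ± 0.24 SE, limma adjusted p = 2.6e-08), and AT5G65300 10.4-fold lower (adjusted p = 1.25e-07 in limma). AT1G20823, AT2G25150, AT5G28630, AT4G10390, CML23, AT4G02360, AT5G59680 and AT2G44500 were between 4.48-fold and 6.99-fold lower. Among the genes lower in shoots, AT5G65300, AT2G25150, AT4G10390, CML23, AT4G02360 and AT5G59680 had no shoot array at 100, and AT4G16260 had 1. These passed the filter through roots, which favours a lower call in shoots. AT3G21670 was 28.9-fold higher in shoots (log2 difference 4.85 ± 0.15 SE, limma adjusted p = 4.32e-09), AT2G25625 5.49-fold and AT5G45310 3.62-fold. In controls alone the gaps of AT3G21670, AT2G25625 and AT5G45310 were 3.97, 1.32 and 1.02 (log2). AT5G45310 and AT2G25625 had no root array at 100 and passed the filter through shoots, which favours a higher call there.

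For the other 12 named genes the organ call was not the same over both treatments and in each treatment alone. The rule shifts the organ gap of every member between treatments, so this division reflects the calls only. The contrasts within 1 treatment use the same arrays and changes as the rule, so their p-values are given as a description. In controls alone AT2G42360 (-0.06, limma adjusted p = 0.854), AT5G08350 (-0.31, 0.166) and AT1G21680 (0.34, 0.0594) were not called. On selenate alone AT5G64190 (0.73, limma adjusted p = 0.0924), AT5G48570 (0.12, 0.528) and AT1G06830 (0.23, 0.488) were not called. AT5G43150 was lower in shoots in controls (-1.28, limma adjusted p = 3.33e-05) and higher on selenate (0.93, 0.00028), and its mean over both was -0.18 (0.124; 0.0324 with a replicate block crossed in shoots). SBT3.5 was likewise lower in control shoots (-0.65, limma adjusted p = 0.0107) and higher on selenate (1.02, 0.00079), with a mean of 0.19 (0.204; 0.0401 after median centring and 0.012 after quantile normalization over all arrays). SIS, PAP85 and LCR67 had control gaps of opposite sign to their means, none of them called, and AT5G11070 a selenate gap of opposite sign. The mean of LCR67 was -0.85 (limma adjusted p = 0.0186; 0.0805 without root control 2, 0.059 without shoot selenate 2 and 0.106 with a pseudocount of 5).

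Of 328 probe sets with control roots at least 4 (log2) above control shoots, 6 were members, AT4G16260 in the group higher in roots and 249203_at, 259365_at, 255632_at, 256352_at and 264029_at in the group lower in roots. Of 377 probe sets with control shoots at least 4 above control roots, 0 were members. The share over all probe sets was 0.424%, the rule had used the same control arrays, and nothing was read from these small numbers. In 249203_at the signals were 1791 and 1366, then 603 and 543 in roots, and 2.6 and 12, then 42.6 and 55.3 in shoots. Over all 328 root-restricted probe sets the median change was -0.28 in roots and 0.05 in shoots, and both selenate shoot arrays lay above both controls for 78 and below them for 51. Over all 16053 these numbers were 2750 and 3050, with a median of -0.02 in shoots. The control arrays enter both the choice of these probe sets and the changes. Beside this, the root marker EXPA7 had 16.4 and 8.3 in control shoots and 32.0 and 38.7 in selenate shoots, EXPA18 had 59.6 and 3.3, then 4.6 and 28.8, and PYK10 had 5771 and 9465, then 6758 and 5645. The summed signal of the 3 root markers was 5847 and 9477 in control shoots and 6794.5 and 5713 in selenate shoots. In roots the summed signal of the 7 shoot markers was 3583 and 3053 in controls and 2267 and 2093 with selenate, and the part of either marker list in the opposed changes was not tested.

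The shoot changes were also read within the arrays of like GAPDH ratio, although the rule had used the same arrays. Between the 2 shoot arrays with high ratios (control 2 and selenate 1) the median change was -0.90 in the group higher in roots and 1.08 in the group lower in roots. Between those with low ratios the medians were -0.91 and 1.08. A change of at least 0.7 in the member's direction was seen for 25 of 38 and 28 of 30 on the high-ratio arrays, and for 30 of 38 and 24 of 30 on the low-ratio arrays. The rule fixed the sign of each of these changes, and a member's 2 changes average to the shoot change that chose it. Nothing about the ratio was therefore read from these values, and its part was not tested.

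Of 9 gene lists with 108 entries by locus, 28 entries could be named on the array and 25 passed the filter. Counting the genes left out by the rule, 2 of these 25 met the criteria, AT1G04770 of the sulfur-deficiency list and LEA4-5 of the abscisate, cold and dehydration list. At any size, with both selenate arrays beyond both controls in each organ, 2 list genes were higher in roots and lower in shoots, 3 the reverse and 6 moved the same way. Over all 16053 probe sets, 9.60% were opposed and 10.8% moved the same way by this looser criterion, and nothing was read from 5 of 25. The small heat-shock gene AT2G29500 had 328 and 322, then 948 and 955 in roots, and 140 and 107, then 85.6 and 76.0 in shoots. COR47, a dehydrin of cold and drought, had 9340 and 9249, then 7490 and 8419 in roots, and 2177 and 2177, then 3658 and 3350 in shoots. With EXPA7 these stood on the same side as members without reaching 0.7 in both organs. None of the 7 photosynthesis genes, the 4 jasmonate genes, the 1 aliphatic glucosinolate gene or the 2 genes of iron and zinc was opposed, and no phosphate starvation gene was named.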

How the data were processed

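The authors deposited 1 linear signal intensity per probe set and array; the submitters' processing notes name MAS5 with no version. From the values, each array was scaled to a mean of 500.04 or 500.05 once 2% of probe sets were removed at either end. The scaling assumes like total signal in both organs. Samples were grouped by title. The members, gene lists and tests were chosen with earlier results of these data known. Log2 values were taken after adding 25, which is 5% of the scaled mean, so folds understate changes of weak transcripts. Organ levels were tested with limma 3.58.1 in R 4.3.3 (1 mean per group, variance trend, 4 residual and 5.12 prior degrees of freedom) and adjusted by Benjamini-Hochberg. Tested on simulated data (16053 probe sets, 200 changed), it recovered 100% of 2-fold and 4-fold organ differences, and 2.91% of its calls were false. Deviations shared between arrays, spreads particular to a probe set and opposed selenate changes were not simulated. Far fewer probe sets were changed than the 74.6% called in the data, so the recovery does not describe the members.

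Names came from the platform's annotation, updated from the RefSeq annotation of TAIR10.1: 13513 probe sets have 1 gene, 503 several and 8730 none listed. Every member with 1 gene is named, with the 2 strongest unnamed ones per direction, the 3 nearest the threshold on each side, and the root-restricted members, which were chosen after their values were seen. Array number limits the precision. The planned promoter motif counts were not made, since no sequence was used here. The labels do not say whether replicate numbers pair the samples. Deviations of same-numbered arrays correlated at 0.339 in roots and -0.485 in shoots. Other pseudocounts, filters, scalings, thresholds, left-out arrays and a replicate block were tried.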

Additional observations from a re-analysis of the deposited data

Results flagged for a closer look

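The 68 members moved in opposite directions in roots and shoots, with both selenate arrays beyond both controls in each organ, which is the criterion that chose them, and the difference between the organs was not tested. Groups of 2 arrays are too small to look for outlying samples.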

How the results depend on the processing

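The number of opposed probe sets was 68. It was 110 with a pseudocount of 5 (68 shared), 17 with one of 100 (17 shared), 182 at a threshold of 0.5, 19 at a threshold of 1, 37 with a signal of 100 asked for in each organ, and 112 (52 shared) without both shoot arrays with the highest GAPDH ratios. Leaving out 1 array at a time, which eases the array criterion, gave 65 to 107, with 107 (51 shared) without shoot control 1. The same-direction probe sets numbered 161, and 54 with a pseudocount of 100, 355 and 45 at thresholds of 0.5 and 1, and 99 with the signal asked for in each organ. Under the 17 settings that kept the threshold and asked for selenate arrays beyond controls, 12 members met the rule each time. Of these, 4 were higher and 8 lower in roots, among them AT5G11070 and AT5G43150. Some of these settings left out arrays, which eases the array criterion. Without both shoot arrays with the highest GAPDH ratios, that criterion holds in shoots for any change. The organ calls, 40 lower and 20 higher in shoots, were 16 and 13 with the signal asked for in each organ, where 37 members were tested. No share over all probe sets is given for that filter. With the replicate block the calls were 40 and 20. A block within each organ crossed in shoots, chosen after seeing the data, gave 41 and 20. With control arrays alone the organ difference was -0.26 for SIS, 0.47 for PAP85, -0.65 for SBT3.5 and 0.65 for LCR67, and with selenate arrays alone -1.15 for AT5G11070 and 0.93 for AT5G43150, each of opposite sign to the mean over both treatments, which by construction averages opposed changes. Low signals and 2 arrays per group limit precision.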
